A study of Homo sapiens with 47 samples.

Results

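Unedited HAP1 cells were compared with unedited HCT116 cells, a pair of human cancer lines of different origin, to describe what each line expressed before any gene was edited. The comparison took 17 of the 47 RNA-sequencing libraries of the series, namely 8 of HAP1 and 9 of HCT116. They were chosen by title. The HAP1 libraries were those titled WT or EV, in replicates 1 to 4, and the HCT116 libraries were those titled WT, EV1 or EV2, in replicates 1, 2 and 4. WT cells were the parental line, and EV cells, for empty vector, had received Cas9 without a guide RNA, so that no site in the genome was targeted. The other libraries came mostly from clones in which NUP58, a nuclear pore gene, had been edited, and they were not analysed here.

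HAP1 is an adherent, near-haploid line obtained from KBM-7, a chronic myeloid leukaemia line, during an attempt to reprogramme that line with introduced copies of POU5F1, SOX2, KLF4 and MYC. HCT116 is a near-diploid colorectal carcinoma line with mismatch repair deficiency and mutant CTNNB1. Cultured lines keep part of the regulatory state of their tissue of origin, such as the keratins and junction proteins of an epithelium, and lose other parts of it. Genes of the blood, the gut epithelium and the early embryo were therefore read side by side in both lines.

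Each side of the comparison was 1 cell line, so p-values measured only the spread among libraries of these lines, and line could not be told apart from culture history. According to the methods of the study, transfected HAP1 cells were sorted as single cells, whereas transfected HCT116 cells were selected with puromycin and then diluted to single cells. The EV, EV1 and EV2 lines may therefore each stand for 1 clone, and replicates of a line were repeat cultures of it, without a statement that they came from separate derivations. The RNA was extracted from cell populations, so fewer cells in a state and less RNA per cell could not be told apart.

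Expression was deposited as FPKM, fragments per kilobase scaled to the mapped reads of a library, for 57507 genes. Summed FPKM lay between 627676 and 647747 for HAP1 libraries and between 619798 and 721992 for HCT116 libraries. Genes above 0 numbered 18570 to 18962 in HAP1 and 18020 to 18879 in HCT116. The depth of the libraries relative to the deepest, read from the spacing of low FPKM values, was 0.778 to 1 in HAP1 and 0.76 to 0.934 in HCT116. Mitochondrially encoded transcripts took 5.24% to 9.19% of the FPKM in HAP1 and 5.95% to 18.0% in HCT116, and their part in the results was not tested. Pearson's r of log2(FPKM + 1) across genes was 0.947 to 0.989 between HAP1 libraries, 0.942 to 0.986 between HCT116 libraries and 0.743 to 0.812 between the lines.

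Labels and values of HCT116 replicate 4 conflicted. The library titled WT carried the genotype of Cas9 without a guide, and the library titled EV1 carried the wild-type genotype. MAL2, a membrane protein of transport to the apical surface of epithelial cells, measured 9.67 FPKM in EV2 replicate 1, 7.07 in EV2 replicate 2 and 9.05 in the library titled WT replicate 4. In the other 6 HCT116 libraries MAL2 was between 84.3 and 103.1 FPKM. GRHL2, a transcription factor of epithelial identity, and HOXB8 were low in the same 3 libraries, at 0.14 to 0.357 and 5.12 to 7.69 FPKM, against 3.48 to 5.02 and 35 to 54.3 FPKM in the other 6. Libraries were kept in the groups that their titles give, and results that rest on these 3 libraries are given below with and without them.

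In the comparison of the lines, 3244 of 13553 genes tested were called different, which is 23.9% of them. A gene entered the test when its mean over the 17 libraries was at least 1 FPKM. A call required an adjusted p under 0.05, from limma on log2(FPKM + 1) with Benjamini-Hochberg adjustment over all 13553 genes, together with a difference of at least 2-fold on that scale. Of the calls, 1741 were higher in HAP1, or 12.8% of genes tested, and 1503 were higher in HCT116, or 11.1%. At any fold, 8968 genes (66.2%) had an adjusted p under 0.05. All HAP1 libraries lay above all HCT116 libraries for 2653 genes (19.6%), and all HCT116 libraries lay above all HAP1 libraries for 1926 genes (14.2%), so separation of the lines in a single gene was common.

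Large differences were more frequent in the HCT116 direction. Differences of at least 8-fold were found for 264 genes higher in HAP1 and 321 higher in HCT116 and of at least 32-fold for 31 and 73. Without the 3 HCT116 libraries low in MAL2, 1841 genes were higher in HAP1 and 1528 in HCT116. The median log2 difference of all genes, HAP1 minus HCT116, was 0.11. It was 0.18 after each library was scaled to the same total, as TPM, and 0.00 after scaling by median ratios over genes present in all libraries, and the calls then split into 2080 higher and 1490 lower, or 1548 higher and 1667 lower. Differences on the log2(FPKM + 1) scale understate the change of genes with low values.

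**Figure D1:**
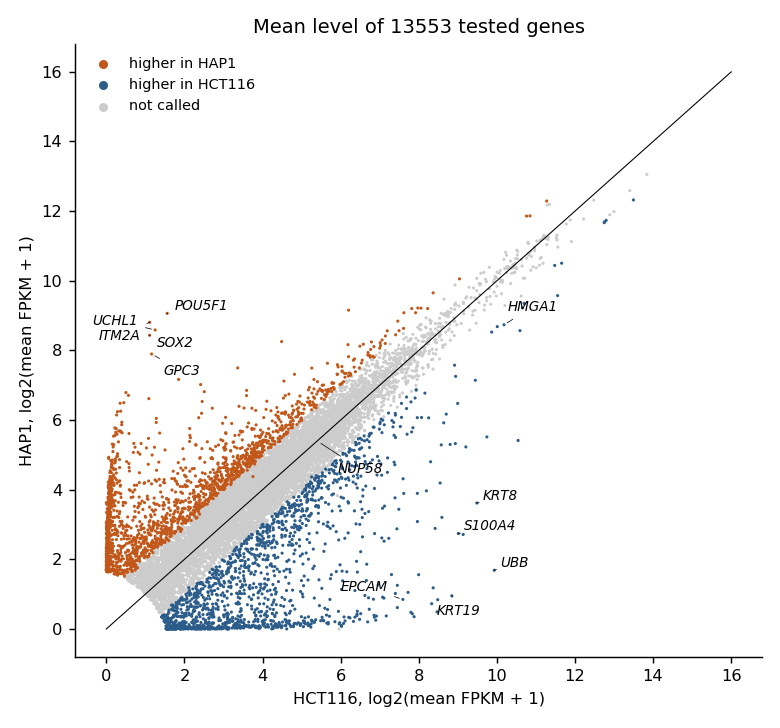
Mean log2(FPKM + 1) of each gene tested in 9 HCT116 libraries (horizontal axis) and in 8 HAP1 libraries (vertical axis), with the 1741 genes called higher in HAP1 and the 1503 called higher in HCT116 coloured. Labelled genes such as POU5F1 and SOX2 lie close to the HAP1 axis and UBB and KRT19 close to the HCT116 axis, with means of at most 2.22 FPKM in the line where they were lower.

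The largest differences in the HAP1 direction included transcription factors of the early embryo. POU5F1, the pluripotency factor also called OCT4 (chr6:31164337-31180731, minus strand, GRCh38), measured 374.8 to 1041 FPKM in HAP1 with a median of 506 and 1.12 to 3.04 FPKM in HCT116 with a median of 1.79. Its mean was 533.8 ± 216.4 FPKM (SD, n = 8) in HAP1 and 1.94 ± 0.659 FPKM (SD, n = 9) in HCT116. The log2 difference was 7.46 ± 0.18 (SE, limma, adjusted p = 3.22e-18). The lines did not overlap, and the highest HAP1 value was that of WT replicate 2, while the other 7 lay at or under 546.7 FPKM.

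SOX2, which acts with POU5F1 in pluripotent cells (chr3:181711925-181714436, plus strand), measured 255.6 to 753.8 FPKM in HAP1 (median 301.3) and 0.678 to 2.06 FPKM in HCT116 (median 1.1). Its log2 difference was 7.26 ± 0.18 (SE, limma, adjusted p = 6.7e-18), and the lines did not overlap. WT replicate 2 was again the highest HAP1 library, and the other 7 lay at or under 321.6 FPKM.

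The companion factors of reprogramming did not follow this pattern. KLF4, added to the description after its values were seen, measured 1.23 to 5.19 FPKM in HAP1 (median 2.88) against 5.14 to 26.2 FPKM in HCT116 (median 13.3), and was called higher in HCT116 with a log2 difference of -2.06, although 1 HAP1 value reached the lowest HCT116 value. MYC measured 244.3 to 547.1 FPKM in HAP1 (median 309.3) and 153.6 to 240.0 FPKM in HCT116 (median 206.2). Every HAP1 library was above every HCT116 library for MYC, but its log2 difference of 0.69 was under the fold needed for a call. FPKM per gene could not tell transcripts of introduced copies from those of the genomic loci. POU5F1 also shares sequence with its pseudogenes, and POU5F1B, POU5F1P3 and POU5F1P4 were each at or under 0.957 FPKM in every library.

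The other members of the early embryonic list divided. The list held 32 genes, of which 16 passed the filter on low values. Among these, 9 were called higher in HAP1 and 4 higher in HCT116, where 12.8% and 11.1% of all genes were. Their median log2 difference was 1.62 against 0.11 over all genes. Genes high in a single line could pass the filter, so the counts and the median describe the 16 members and not the list. OTX2, a homeobox factor of the anterior embryo, measured 91.7 to 156.6 FPKM in HAP1 and 0.271 to 0.726 FPKM in HCT116 (log2 difference 6.27). DPPA4, a chromatin factor of the early embryo, measured 80.5 to 122.5 FPKM in HAP1 and 0.213 to 0.83 FPKM in HCT116 (6.14).

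The RNA-binding proteins LIN28B and IGF2BP1, which are fetal regulators of growth, were also called higher in HAP1, with log2 differences of 3.46 and 4.30, as were UTF1 (2.03), TRIM71 (2.32) and FOXD3 (1.21). In the opposite direction, ZIC2, the architectural chromatin proteins HMGA1 and HMGA2, and IGF2BP2 were called higher in HCT116. HMGA1 measured 373.9 to 473.9 FPKM in HAP1 and 908 to 1719 FPKM in HCT116 (log2 difference -1.43). HMGA2 measured 17.9 to 28.8 FPKM against 75.7 to 138 FPKM (-2.06). The call of IGF2BP2, at -1.04, was lost after TPM scaling (-0.98) and without the 3 libraries low in MAL2 (-0.99).

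Several defining genes of pluripotent cells were at or near 0 in both lines. NANOG, PRDM14, DPPA3 and ZFP42 were each at or under 0.0673 FPKM in every library. LIN28A reached 0.239 FPKM and SALL4 0.461 FPKM at most, both in HCT116. DNMT3B, the de novo DNA methyltransferase of the early embryo, was measured at 6.52 to 11.9 FPKM in HAP1 and 5.89 to 11.4 FPKM in HCT116 and did not pass the test (log2 difference 0.04, limma adjusted p = 0.796).

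By rule, the 15 protein-coding genes with the largest difference in each direction were named, with no overlap between the lines. Besides POU5F1, SOX2, OTX2 and DPPA4, the HAP1 set was ITM2A, UCHL1, GPC3, KIF1A, NUDT11, BASP1, COL2A1, CRMP1, SERPINF1, PDPN and BST2, with log2 differences of 5.52 to 7.60. ITM2A, an integral membrane protein (chrX:79360384-79367667), had the largest difference and a wide range in HAP1, from 145.5 to 719.9 FPKM, against 0.498 to 2.15 FPKM in HCT116. UCHL1, a deubiquitinase abundant in neurons (chr4:41256413-41268455), measured 296 to 465 FPKM in HAP1 against 0.71 to 2.45 FPKM in HCT116.

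Others of this set are given as examples chosen after their values were seen. KIF1A, a motor of axonal transport, was the most even of them, at 79.5 to 96.7 FPKM in HAP1 and 0.151 to 0.37 FPKM in HCT116 (log2 difference 6.13 ± 0.07, SE). GPC3, an oncofetal heparan sulphate proteoglycan, measured 128 to 302 FPKM in HAP1 and 0.546 to 2.65 FPKM in HCT116. COL2A1, the main collagen of cartilage, measured 57.7 to 87.7 FPKM against 0.115 to 0.733 FPKM. BST2, an interferon-inducible antiviral protein also called tetherin, measured 97.3 to 167 FPKM against 0.618 to 7.35 FPKM.

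In the HCT116 direction the largest difference belonged to UBB, which encodes polyubiquitin (chr17:16380798-16382745, plus strand). UBB measured 0.712 to 3.27 FPKM in HAP1 (median 2.52) and 737.2 to 1143 FPKM in HCT116 (median 1018). Its mean was 2.22 ± 0.872 FPKM (SD, n = 8) in HAP1 and 976.4 ± 145.5 FPKM (SD, n = 9) in HCT116. The log2 difference was -8.29 ± 0.16 (SE, limma, adjusted p = 1.22e-19), and the lines were far from overlapping.

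RPS27A, which encodes ubiquitin fused to a ribosomal protein and was looked up after the UBB values were seen, did not pass the test. It measured 936.8 to 1206 FPKM in HAP1 and 730.2 to 1168 FPKM in HCT116 (log2 difference 0.11, limma adjusted p = 0.299). Near-identical ubiquitin repeats occur in more than 1 gene, so the way reads were divided among them, UBB included, was uncertain.

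The remaining genes of the HCT116 set were KRT19, ADIRF, IFITM3, CRIP1, H1F0, EREG, AREG, CD44, EPCAM, ANXA3, CAV1, DKK1, MAGEB2 and C19orf33, with log2 differences of -6.50 to -7.87. KRT19, a keratin of simple epithelia (chr17:41523617-41528308), measured 0.324 to 2.2 FPKM in HAP1 (median 0.832) and 231 to 658 FPKM in HCT116 (median 466). EREG and AREG, ligands of the epidermal growth factor receptor, measured 177 to 297 and 102 to 403 FPKM in HCT116. In HAP1 both stayed at or under 0.88 FPKM.

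H1F0, the replication-independent linker histone H1.0, measured 0.522 to 1.05 FPKM in HAP1 and 206 to 522 FPKM in HCT116 (log2 difference -7.56). IFITM3, an interferon-induced antiviral membrane protein with close paralogues, measured 0.228 to 1.48 FPKM against 259 to 509 FPKM (-7.65). CD44, the hyaluronan receptor (chr11:35138882-35232402), measured 0.383 to 2.42 FPKM against 146 to 629 FPKM (-7.09). Interferon-inducible genes were thus found at both ends, BST2 in HAP1 and IFITM3 in HCT116.

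**Figure D2:**
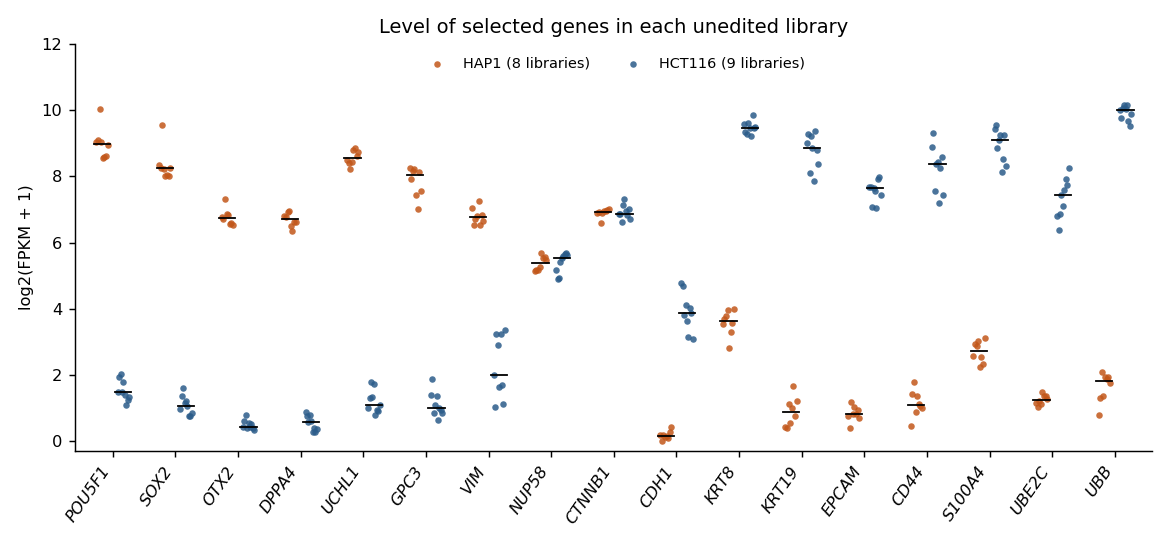
Log2(FPKM + 1) of 17 genes in each of the 8 HAP1 and 9 HCT116 libraries, 1 dot per library with a black bar at the median of each line. POU5F1, SOX2, OTX2, DPPA4, UCHL1, GPC3 and VIM lie higher in HAP1, NUP58 and CTNNB1 overlap, and CDH1, KRT8, KRT19, EPCAM, CD44, S100A4, UBE2C and UBB lie higher in HCT116.

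HCT116 expressed the junction and keratin genes of an epithelium, and most of them were far lower in HAP1. In this list 38 of 39 genes passed the filter, and 31 were called higher in HCT116 against 2 in HAP1. Over all genes tested, 11.1% and 12.8% were called in these directions. The median log2 difference of the list was -3.22. All HCT116 libraries lay above all HAP1 libraries for 32 of the 38, where 14.2% of all genes tested did so. The median of a line was at least 1 FPKM for 37 of the 39 genes in HCT116 and for 20 in HAP1. The summed level of the list was 231.2 to 321.2 FPKM in HAP1 and 2337 to 3809 FPKM in HCT116.

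CDH1, the adhesion molecule E-cadherin (chr16:68737292-68835537), was between 0 and 0.332 FPKM in HAP1 (median 0.117) and between 7.47 and 26.5 FPKM in HCT116 (median 13.7), with a log2 difference of -3.73 (limma, adjusted p = 1.34e-12). EPCAM, an adhesion molecule of simple epithelia (chr2:47345158-47387601), measured 0.309 to 1.25 FPKM in HAP1 and 132 to 253 FPKM in HCT116 (-6.73). The tight junction proteins CLDN4 and CLDN7 had log2 differences of -5.91 and -5.70, and the desmosomal plakophilin PKP3 one of -5.34. None of these genes overlapped between the lines.

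Keratins of simple epithelia were not equally low in HAP1. KRT8 measured 6.01 to 14.9 FPKM in HAP1 and 599 to 923 FPKM in HCT116 (log2 difference -5.90), and its partner KRT18 measured 30.2 to 46.4 FPKM against 436 to 543 FPKM (-3.62). Both genes have many pseudogenes, so their reads may have been divided. ESRP1 and ESRP2, splicing factors of epithelial isoforms, had log2 differences of -3.16 and -3.94. RAB25, a small GTPase of apical recycling, and ST14, the protease matriptase, reached 0.564 and 0.262 FPKM at most in HAP1 and at least 60.6 and 41.5 FPKM in HCT116.

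The members that departed from the list included transcription factors and junction genes, and their differences were moderate. OVOL2 was called higher in HAP1 at 1.00 to 3.06 FPKM against 0.0801 to 0.692 FPKM (log2 difference 1.25), and GRHL1 at 5.6 to 9.81 FPKM against 2.66 to 3.94 FPKM (1.01). The GRHL1 call was lost after median-ratio scaling (0.91) and without the 3 libraries low in MAL2 (0.99). CGN, KLF5, OCLN, DSP and SPINT1 were not called, with log2 differences from -0.90 to 0.66. MAL2, called at -4.10, had a log2 difference of -5.20 without the 3 libraries, and GRHL2, called at -1.73, one of -2.44.

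Promoter windows of some of these genes are shown because the repressors of the epithelial state, ZEB1, ZEB2 and SNAI1, bind E-boxes of the form CACCTG. Searched on either strand, that motif was found in 5598 of 27195 RefSeq promoters of 300 bases (250 before and 50 after the start), or 20.6%, in build GRCh38.p14. It was found in 18.5% of 9718 promoters of tested genes. Among the list, 20 of 39 genes had a promoter in the table, and 9 of these 20 had the motif. Of the 14 among them called higher in HCT116, 7 had it. The other genes of the list were missing, so no share for the list is given, and no test was run. The motif is in capitals below, in 28 bases on the strand of the gene, where CAGGTG is its reverse complement. Longer motifs were searched as well, and each was found in 0 of the 20 promoters of the list. Among all 27195 promoters they were found in 1 and 32. The genes shown were called higher in HCT116 and had the E-box motif upstream of the start. Where a gene had several matches upstream, only the match nearest the start is shown.
AP1M2, chr19:10587323-10587350, minus strand, 27 bases before the start: taagacgcacaCACCTGggctctcacct
CRB3, chr19:6464200-6464227, plus strand, 60 bases before the start: gtgcgctctccCAGGTGagtgactaaac
ELF3, chr1:202010456-202010483, plus strand, 120 bases before the start: aatatgcaaatCACCTGgggccaggagc
ITGA6, chr2:172427279-172427306, plus strand, 46 bases before the start: gcccggtgcatCACCTGcacttctcttt
LAMB3, chr1:209652627-209652654, minus strand, 218 bases before the start: gcccccacaggCAGGTGggcattgtgga
RAB25, chr1:156061108-156061135, plus strand, 41 bases before the start: atctctccaccCACCTGggccccaggtc

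Levels at these genes differed in size. CRB3, a polarity protein of the apical membrane, measured 0.123 to 1.94 FPKM in HAP1 and 13.7 to 27.1 FPKM in HCT116 (log2 difference -3.81). ELF3, an epithelial transcription factor, was at or under 0.408 FPKM in HAP1 and measured 21.8 to 70.4 FPKM in HCT116 (-5.09). AP1M2, an adaptor of basolateral sorting, was at or under 0.302 FPKM against 19.99 to 56 FPKM (-5.04). ITGA6, the laminin-binding integrin subunit, was present in both lines, at 6.65 to 11.9 FPKM and 25.6 to 45.4 FPKM (-1.70). A match of the motif is a description of the sequence and not evidence that a factor bound there.

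The 3 repressors themselves did not move together. ZEB2 measured 6.97 to 9 FPKM in HAP1 (median 8.52) and at most 0.407 FPKM in HCT116 (median 0.056), with a log2 difference of 3.01. ZEB1 measured 3.87 to 5.55 FPKM against 1.08 to 1.71 FPKM (1.30). SNAI1 was called higher in HCT116, at 1.4 to 7.97 FPKM in HAP1 and 6.15 to 21.8 FPKM in HCT116 (-1.91), with an overlap of the lines through the highest HAP1 library, WT replicate 2. SNAI2 was at or under 0.141 FPKM in every library.

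Mesenchymal genes were found in both lines. Of 30 listed genes 18 passed the filter, with 8 called higher in HAP1 and 5 higher in HCT116, where 12.8% and 11.1% of all genes were. The median log2 difference was 0.61. It was 0.03 among empty-vector libraries alone, 0.12 without HAP1 WT replicate 1 and 0.21 without HAP1 EV replicate 1. VIM, the intermediate filament vimentin, measured 90.5 to 151.9 FPKM in HAP1 (median 107.7) and 1.03 to 9.33 FPKM in HCT116 (median 2.96). Its log2 difference was 4.55 ± 0.31 (SE, limma, adjusted p = 7.99e-11), and the lines did not overlap. Within HCT116 the 3 libraries low in MAL2 had the highest VIM values, 8.35 to 9.33 FPKM, and without them the difference was 5.07.

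CDH2, or N-cadherin, measured 7.04 to 11.4 FPKM in HAP1 and at most 0.285 FPKM in HCT116 (log2 difference 3.23). SPARC, a matrix protein, TWIST1, a transcription factor, and LOX, a collagen cross-linking enzyme, were also called higher in HAP1, at 3.43, 1.63 and 1.69. The calcium-binding protein S100A4 ran the other way, at 3.73 to 7.63 FPKM in HAP1 and 279 to 756 FPKM in HCT116 (-6.23), as did the lectin LGALS1, at 7.31 to 94.1 FPKM against 337.9 to 1504 FPKM (-4.45), and the ectonucleotidase NT5E (-4.67). TAGLN, called at -1.33, was 19.56 to 19.98 FPKM in HCT116 replicate 4 and 1.87 to 3.62 FPKM in the other 6 HCT116 libraries, and its call was lost without the 2 libraries of conflicting labels (-0.86). The fibroblast genes CDH11, COL1A2 and TGFBI were at or under 0.146 FPKM in every library, and COL6A1 overlapped at 32.1 to 57.0 and 33.6 to 62.8 FPKM.

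The tissue of origin was checked against its markers in each line. Of 20 intestinal epithelial genes 5 passed the filter. HNF4A, a nuclear receptor of gut and liver, measured at most 0.0732 FPKM in HAP1 and 1.83 to 4.52 FPKM in HCT116 (log2 difference -1.88), and GATA6, a factor of endoderm, at most 0.297 FPKM against 1.37 to 4.91 FPKM (-1.77). Those were the 2 calls of the list, in a direction where 11.1% of all genes tested were called. Toward HAP1 the largest log2 difference of the list was 0.725, under the fold for a call. For 1 of the 5 every HAP1 library lay above every HCT116 library, where 19.6% of all genes tested did so. For 3 of the 5 every HCT116 library lay above every HAP1 library, where 14.2% did so. CDX2, the homeobox factor of intestinal identity, was 1.84 to 4.21 FPKM in HAP1 and 5.0 to 9.33 FPKM in HCT116 without overlap, and its log2 difference of -0.99 was under the fold for a call. CDX2 gained a call with a pseudocount of 0.1 (-1.22), after TPM (-1.01) or median-ratio scaling (-1.08), among empty-vector libraries (-1.001), without the 2 libraries of conflicting labels (-1.03), and without single libraries such as HAP1 WT replicate 1 (-1.06).

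Genes of differentiated gut cells were at 0 or low in HCT116 as well. CDX1, CEACAM5, CEACAM6, TFF3, FABP1, OLFM4, ISX and PHGR1 were listed at 0 in all 17 libraries. VIL1 reached 0.136 FPKM at most in HCT116, CDH17 0.268, and KRT20 1.45.

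Most blood cell markers were at or near 0 in HAP1, although its parent line was leukaemic. Of 42 haematopoietic genes 13 passed the filter. The surface markers PTPRC, CD37, CD48, CD53 and IL3RA were listed at 0 in all 17 libraries, CD34 reached 0.0743 FPKM and MPO 0.0529 FPKM in HAP1, and the lineage factors SPI1 and GATA1 were listed at 0 in every HAP1 library. Among genes that passed, 4 were called higher in HAP1, namely TAL1 (in the WT libraries), MYB, ITGA2B and CORO1A, and 6 higher in HCT116, namely HBE1, HBG2, VAV1, PTPN6, RUNX1 and LMO2. Over all genes tested, 12.8% were called higher in HAP1 and 11.1% higher in HCT116.

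MYB, a transcription factor of blood progenitors and colonic crypts, measured 4.97 to 13.1 FPKM in HAP1 and 1.65 to 4.76 FPKM in HCT116 (log2 difference 1.41). GATA2, a progenitor factor, was present in both lines at 14.1 to 18.4 and 6.14 to 17.3 FPKM and was not called (0.43). VAV1, an exchange factor usually restricted to blood cells, was at or under 0.125 FPKM in HAP1 and measured 6.92 to 15.4 FPKM in HCT116 (-3.38). The phosphatase PTPN6 measured 0.115 to 1.24 FPKM against 14.8 to 20.9 FPKM (-3.75).

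The embryonic globin gene HBE1 (chr11:5268345-5505652, minus strand) measured at most 0.502 FPKM in HAP1 and 52.5 to 252 FPKM in HCT116 (log2 difference -6.43). HBG2 was listed at 0 in all HAP1 libraries and measured 1.06 to 4.44 FPKM in HCT116, and HBB and HBD were listed at 0 in all 17. The annotated span of HBE1 overlaps that of HBG2 (chr11:5253188-5505605) and of the gene AC104389.28 (chr11:5303444-5505652). AC104389.28, looked up afterwards, measured 53.1 to 152 FPKM in HCT116 and at most 0.354 FPKM in HAP1. Reads of this locus may have been divided among the 3 genes, so which of them was transcribed in HCT116 was uncertain.

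**Figure D3:**
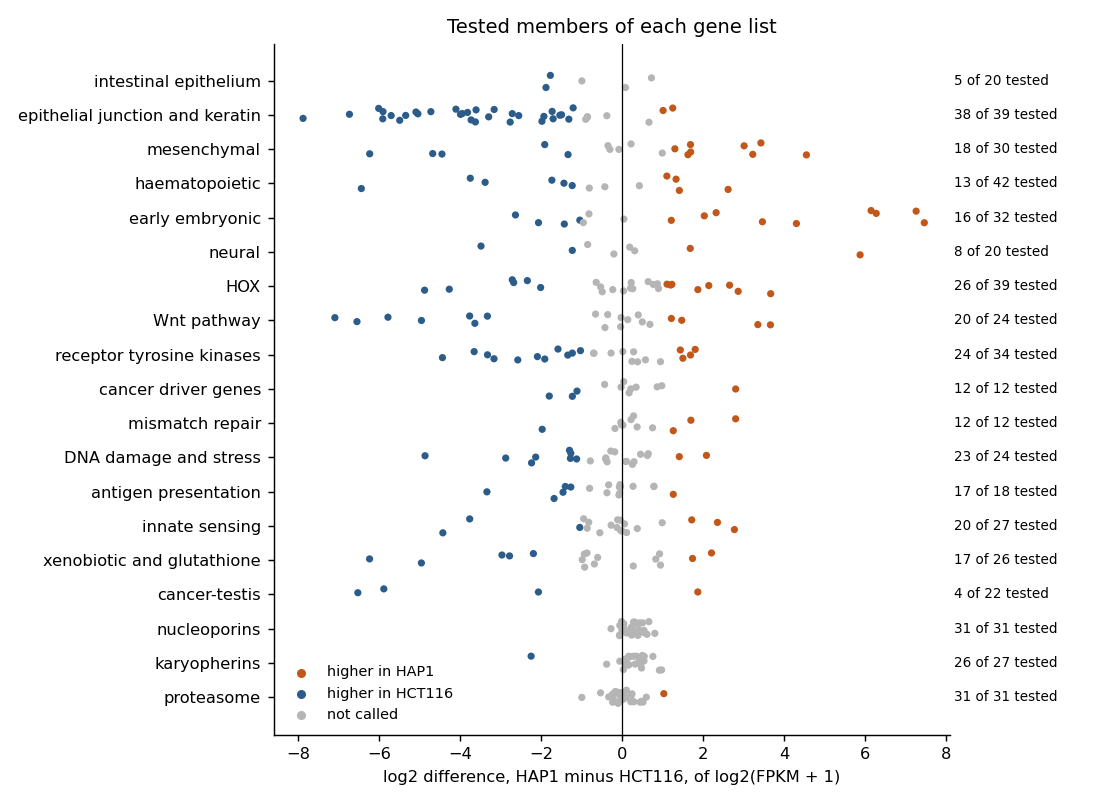
Log2 difference, HAP1 minus HCT116, of every tested member of 19 gene lists, with members called higher in HAP1 or in HCT116 coloured and the number tested beside each list. Epithelial junction and keratin genes lie mostly on the HCT116 side (31 of 38 called higher there), while the 31 nucleoporins and 31 proteasome genes lie close to 0.

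Neural genes gave no common direction. Of 20 genes 8 passed the filter, with 2 called in each direction and a median log2 difference of -0.01. Of all genes tested, 12.8% were called higher in HAP1 and 11.1% higher in HCT116. CRMP1, which guides axon growth, measured 54.6 to 84.1 FPKM in HAP1 and 0.102 to 0.324 FPKM in HCT116 (5.87), and NES, the intermediate filament nestin, 10.8 to 18.5 FPKM against 2.58 to 5.61 FPKM (1.68). SYT1, a calcium sensor of synaptic vesicles, measured 0.637 to 2.98 FPKM in HAP1 and 19.3 to 58.7 FPKM in HCT116 (-3.48). TUBB3 overlapped between the lines at 59.8 to 126 and 73.4 to 130 FPKM.

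HOX genes, which encode positional identity along the body axis and lie in 4 clusters, differed by cluster. Of 39 genes 26 passed the filter, with 8 called higher in HAP1 and 6 higher in HCT116, where 12.8% and 11.1% of all genes were. The median log2 difference was 0.24. In the HOXA cluster, 9 of 11 genes passed and 1 was called. HOXA13, the most posterior member, measured 16.8 to 22.2 FPKM in HAP1 and 1.57 to 3.07 FPKM in HCT116 (log2 difference 2.65). HOXA9, at 44.9 to 95.9 FPKM in HAP1 and 58.9 to 119 FPKM in HCT116, and HOXA10 overlapped between the lines.

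The HOXB cluster held calls in both directions. HOXB2 measured 15.8 to 26.4 FPKM in HAP1 (median 21.4) and 0.187 to 1.78 FPKM in HCT116 (median 0.698), a log2 difference of 3.67. HOXB5, HOXB6, HOXB7, HOXB8 and HOXB9, which are neighbours, were called higher in HCT116 with log2 differences of -2.34 to -4.87. HOXB7 measured at most 0.778 FPKM in HAP1 and 23.4 to 44.2 FPKM in HCT116. HOXB8 measured at most 0.734 FPKM in HAP1 and 5.12 to 54.3 FPKM in HCT116, and its difference of -4.26 was -5.13 without the 3 libraries low in MAL2.

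Called members of the HOXC and HOXD clusters were higher in HAP1 with 1 exception. HOXD13 measured 5.16 to 7.66 FPKM in HAP1 and at most 0.0872 FPKM in HCT116 (log2 difference 2.87), and HOXC13 5.29 to 10.6 FPKM against 1.35 to 3.33 FPKM (1.20). HOXD4, HOXC8 and HOXC10 were called higher in HAP1 too, at 1.87, 2.14 and 1.23. That exception was HOXC9, at 0.27 to 1.08 FPKM against 4.28 to 7.19 FPKM (-2.01). The HOXD8 call (1.11) was lost without the 3 libraries low in MAL2 (0.54), and the HOXC10 call was lost among libraries titled WT alone (0.96).

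**Figure D4:**
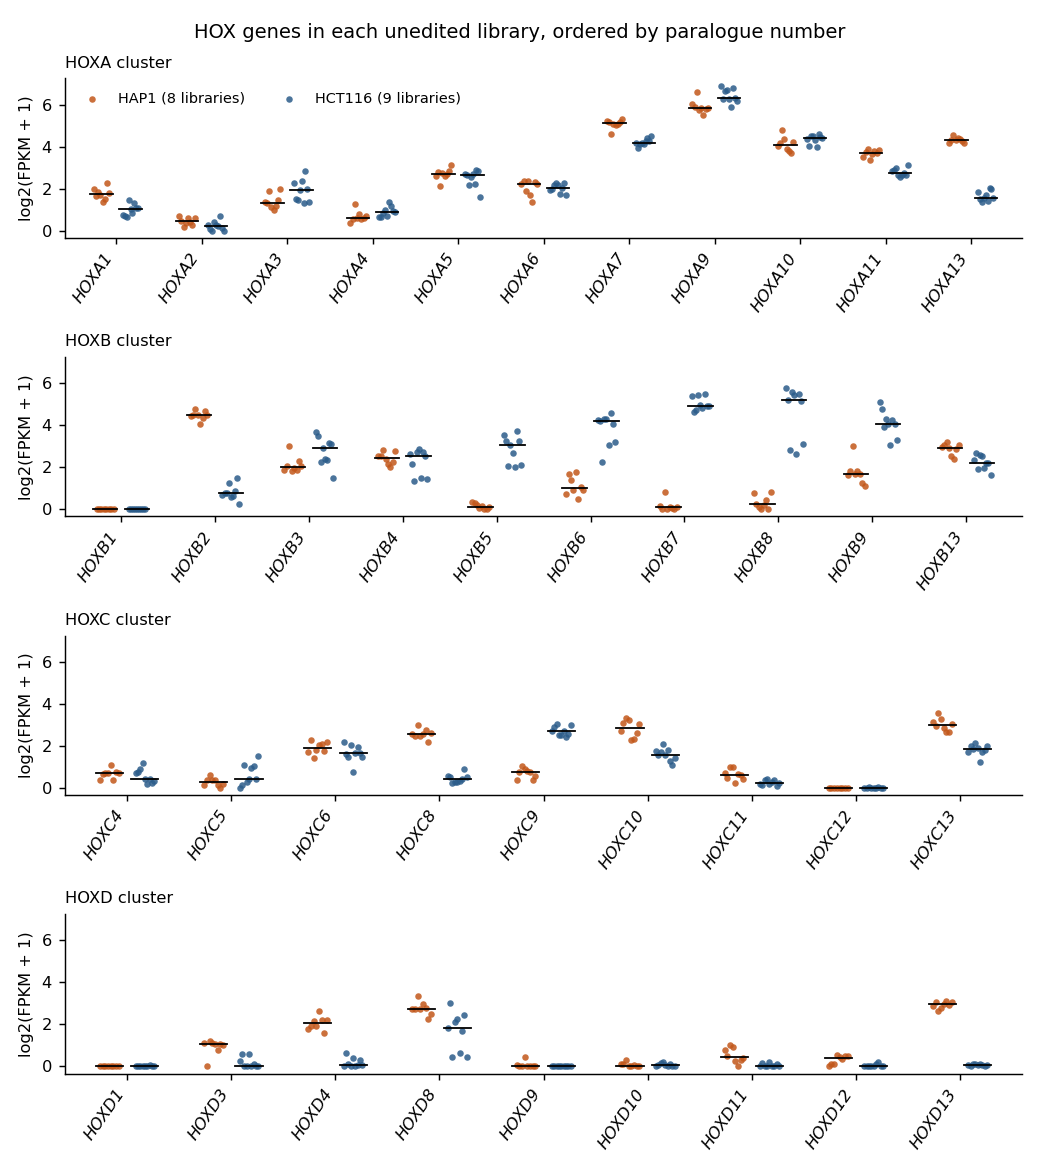
Log2(FPKM + 1) of the HOX genes in the 4 clusters by paralogue number, for each of 8 HAP1 and 9 HCT116 libraries. HOXA9 and HOXA10 overlap between the lines, HOXB5 to HOXB9 lie higher in HCT116, and HOXA13, HOXB2 and HOXD13 lie higher in HAP1.

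Genes of the Wnt pathway, in which stabilised beta-catenin acts with TCF and LEF factors at target genes, were called in both directions. Of 24 genes 20 passed the filter, with 4 called higher in HAP1 and 7 higher in HCT116, where 12.8% and 11.1% of all genes tested were called. CTNNB1, which encodes beta-catenin, measured 94.6 to 128 FPKM in HAP1 and 98.2 to 158 FPKM in HCT116 and did not differ beyond its spread (log2 difference -0.02, limma adjusted p = 0.813). The destruction complex gene APC overlapped (0.14), while AXIN1 was called higher in HAP1 (1.22).

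The nuclear partners of beta-catenin differed in both directions. LEF1 measured 8.12 to 12.9 FPKM in HAP1 and at most 0.213 FPKM in HCT116 (log2 difference 3.35), and TCF7L1 18.2 to 30.2 FPKM against 5.83 to 12.1 FPKM (1.47). TCF7L2 measured 5.28 to 11.4 FPKM in HAP1 and 84.3 to 126 FPKM in HCT116 (-3.32). At the membrane, the R-spondin receptor LGR4 measured 42.6 to 61.2 FPKM in HAP1 against 1.56 to 4.89 FPKM in HCT116 (3.66), and the ubiquitin ligase RNF43 0.448 to 1.25 FPKM against 10.9 to 33 FPKM (-3.63).

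Target and feedback genes were mixed in the same way. DKK1, a secreted antagonist, measured 0.102 to 0.747 FPKM in HAP1 and 35.2 to 269 FPKM in HCT116 (log2 difference -6.54). CCND1, or cyclin D1, measured 0.959 to 3.9 FPKM against 131 to 196 FPKM (-5.78), and SOX9, a factor of intestinal progenitors, at most 0.0799 FPKM against 24.5 to 41.5 FPKM (-4.95). AXIN2 and NOTUM, feedback targets of the pathway, overlapped between the lines at -0.36 and -0.04. LGR5 and ASCL2, markers of intestinal stem cells, were at or under 0.263 FPKM in every library.

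Of 34 receptor tyrosine kinase genes 24 passed the filter, with 11 called higher in HCT116, 4 higher in HAP1 and 9 not called. The median log2 difference was -0.70, against 0.11 over all genes, of which 11.1% were called higher in HCT116 and 12.8% in HAP1. EGFR, the receptor of EREG and AREG, measured 0.0198 to 0.606 FPKM in HAP1 (median 0.078) and 8.84 to 19.5 FPKM in HCT116 (median 13.6), with a log2 difference of -3.65. ERBB2 measured 2.81 to 4.92 FPKM against 23.3 to 30.2 FPKM (-2.57), and MST1R at most 0.518 FPKM against 18.3 to 38.6 FPKM (-4.43). MET, the hepatocyte growth factor receptor, was present in both lines at 14.7 to 21.5 and 57.1 to 102 FPKM (-2.09).

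The 4 receptors called higher in HAP1 were FGFR1, FGFR2, EPHA4 and PDGFRA, the last through its WT libraries, as given below. FGFR1 measured 66.6 to 96.4 FPKM in HAP1 and 20.1 to 36.8 FPKM in HCT116 (log2 difference 1.5), and FGFR2 13 to 20.5 FPKM against 3.7 to 7.03 FPKM (1.44). FGFR3 and FGFR4 were called in the other direction, at -1.23 and -1.03. AXL ranged widely within HCT116, from 3.09 to 27.1 FPKM, and stayed at or under 0.541 FPKM in HAP1 (-3.32).

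Of 12 cancer driver genes 1 was called higher in HAP1, 3 were called higher in HCT116 and 8 were not called. Over all genes tested, 12.8% were called higher in HAP1 and 11.1% higher in HCT116. At any fold, 9 of the 12 had a limma adjusted p under 0.05, as did 66.2% of all genes. PIK3CA, a kinase subunit of growth factor signalling, measured 4.86 to 7.35 FPKM in HAP1 and 4.21 to 8.21 FPKM in HCT116 (log2 difference 0.04). BCR and ABL1, the partners of the fusion of chronic myeloid leukaemia, measured 4.39 to 8.0 and 11.6 to 17.3 FPKM in HAP1. BCR was called higher in HCT116 (-1.23) and ABL1 was not called (-0.43), and gene-level FPKM did not report a fusion transcript.

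Of 12 mismatch repair genes 3 were called higher in HAP1 and 1 higher in HCT116, where 12.8% and 11.1% of all genes were. MSH6 and MSH3, subunits of the complexes that recognise mismatches, were among those higher in HAP1, with log2 differences of 1.26 and 1.70. MLH3 was called higher in HCT116, at 0.0812 to 1.01 FPKM in HAP1 and 2.64 to 5.12 FPKM in HCT116 (-1.97). PMS2 overlapped between the lines (-0.02).

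Of 24 genes of the DNA damage and stress response 23 passed the filter, with 8 called higher in HCT116, 2 higher in HAP1 and 13 not called. Their median log2 difference was -0.37, against 0.11 over all genes, of which 11.1% were called higher in HCT116 and 12.8% in HAP1. GDF15, a stress-induced cytokine, measured 0.237 to 6.54 FPKM in HAP1 and 15.7 to 236.7 FPKM in HCT116 (-4.86). AEN, a nuclease, and BTG2, an antiproliferative factor, were the calls in the HAP1 direction, at 2.08 and 1.41.

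HAP1 libraries were not alike in this list. CDKN1A, the cell cycle inhibitor p21, measured 59.6 to 72.4 FPKM in WT replicate 1, EV replicate 1 and EV replicate 2, and 8.12 to 13.3 FPKM in the other 5 HAP1 libraries. HCT116 values lay between 42.5 and 137.2 FPKM, so the lines overlapped through those 3 libraries although CDKN1A was called (log2 difference -2.13). MDM2, a ubiquitin ligase of the same response, was 39.3 to 57.1 FPKM in the same 3 libraries and 13 to 28.7 FPKM in the other 5, against 28.8 to 44.7 FPKM in HCT116 (-0.37, not called). GDF15 was 5.62 to 6.54 FPKM in them and 0.237 to 1.12 FPKM in the rest. The 3 libraries were of both WT and EV cells.

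Immune genes were present in both lines. Of 18 antigen presentation genes 17 passed the filter, and 5 were called higher in HCT116 against 1 in HAP1, where 11.1% and 12.8% of all genes were. HLA-C measured 50.8 to 63.0 FPKM in HAP1 and 117 to 238 FPKM in HCT116 (log2 difference -1.68), and HLA-F at most 0.207 FPKM against 4.86 to 21.4 FPKM (-3.34). B2M, the shared light chain, overlapped at 407.6 to 634.2 and 373.5 to 676.1 FPKM. Class I genes are highly similar and polymorphic, so differences between them may depend on how well each line matches the reference.

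Of 27 innate sensing genes 20 passed the filter, with 3 called in each direction, shares close to the 12.8% and 11.1% of all genes. MB21D1, which encodes the sensor cGAS, measured 2.74 to 6.46 FPKM in HAP1 and at most 0.0552 FPKM in HCT116 (log2 difference 2.35). TMEM173, its adaptor STING, measured at most 0.651 FPKM in HAP1 and 11.4 to 28.4 FPKM in HCT116 (-3.76). PYCARD, the inflammasome adaptor ASC, was listed at 0 in all HCT116 libraries and measured 1.92 to 13.1 FPKM in HAP1, and GSDMD, the pore protein of pyroptosis, measured 0.148 to 2.75 FPKM against 36.3 to 53.8 FPKM (-4.42). JAK1, called at -1.04, lost its call after TPM scaling and among libraries titled WT alone (-0.92).

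Enzymes and transporters of xenobiotic and glutathione metabolism were called at 7 of the 17 genes that passed among 26, with 5 higher in HCT116, where 11.1% of all genes were. CYP24A1, which inactivates vitamin D, measured 0.0301 to 0.491 FPKM in HAP1 and 31.4 to 314 FPKM in HCT116 (log2 difference -6.23). The exporter ABCC2 measured 0.0718 to 0.249 FPKM against 18.4 to 65.4 FPKM (-4.95), and the quinone reductase NQO1 46.2 to 93.0 FPKM against 178 to 421 FPKM (-2.19). AKR1B1, or aldose reductase, was higher in HAP1, at 104 to 133 FPKM against 29.7 to 42.0 FPKM (1.74). The other HAP1 call, AKR1C1, was 17.7 to 24.2 FPKM in the WT and EV libraries of replicate 3 and at or under 4.50 FPKM in the other 6.

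Of 22 cancer-testis genes 4 passed the filter. MAGEB2 measured 0.0498 to 0.462 FPKM in HAP1 and 93.4 to 137 FPKM in HCT116 (log2 difference -6.52). MAGEA3, whose reads may be divided with its near-identical copy MAGEA6, measured 0.0351 to 0.58 FPKM against 53.3 to 82.6 FPKM (-5.88), and PRAME 3.25 to 12.2 FPKM against 24.6 to 39.7 FPKM (-2.06). DAZL, a germ cell RNA-binding protein, was higher in HAP1, at 0.612 to 5.85 FPKM against at most 0.0273 FPKM (1.87).

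Nuclear pore genes, the subject of the editing, differed little between the lines. All 31 nucleoporins on the list passed the filter and none was called, where 23.9% of all genes were. Of the 31, 16 had an adjusted p under 0.05 with a smaller fold, where 66.2% of all genes had one at any fold. NUP58, the edited gene (chr13:25301524-25365390, plus strand), measured 34.3 to 50.4 FPKM in HAP1 (median 40.4) and 28.7 to 50.3 FPKM in HCT116 (median 45.4). Its mean was 40.8 ± 6.10 FPKM (SD, n = 8) and 41.7 ± 8.48 FPKM (SD, n = 9), and its log2 difference was -0.02 ± 0.12 (SE, limma, adjusted p = 0.919). The largest difference of the list was that of NUP214, at 15.2 to 25 FPKM in HAP1 and 6.5 to 13.2 FPKM in HCT116 (0.81).

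The median log2 difference of the nucleoporins was 0.28 against 0.11 over all genes. HCT116 replicate 1 libraries lay lowest for several of them. NUP107, of the outer ring of the pore, was 23.7 to 34.6 FPKM in replicate 1 of HCT116 and 50.1 to 70.6 FPKM in the other 6 HCT116 libraries, against 56.9 to 68.1 FPKM in HAP1. The part of this replicate in the list was not tested beyond leaving out its libraries in turn.

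Karyopherins, the import and export receptors of the pore, gave 1 call among the 26 of 27 that passed the filter. Of all genes tested, 23.9% were called. The median log2 difference of the karyopherins was 0.30. RANBP17 measured at most 0.113 FPKM in HAP1 and 2.11 to 5.03 FPKM in HCT116 (-2.25). KPNB1, or importin beta, measured 151 to 324 FPKM in HAP1 and 113 to 218 FPKM in HCT116 (0.55), and KPNA4 12.3 to 18.1 and 10.5 to 17.9 FPKM (0.03). KPNA2 was 129.2 to 170.0 FPKM in HCT116 replicate 1 and 287.1 to 470.5 FPKM in the other 6 HCT116 libraries. In HAP1 it was 239.2 to 342.2 FPKM, above replicate 1 and overlapping the other 6 (0.08).

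Proteasome genes had a median log2 difference of 0.00 over 31 of 31 genes tested, and 1 was called, where 23.9% of all genes were. PSMA4, on chromosome 15 (chr15:78540405-78552417), was the only call, at 522 to 636 FPKM in HAP1 and 159 to 380 FPKM in HCT116 (1.03). That call was lost after median-ratio scaling (0.91) and without HCT116 WT replicate 1 (0.95) or EV1 replicate 1 (0.93). PSMD12, at 36.0 to 66.9 FPKM against 66.3 to 164 FPKM, came closest in the other direction (-0.99), and was called there after median-ratio scaling (-1.11), without HCT116 WT replicate 1 (-1.08) and without EV1 replicate 1 (-1.07).

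Some single genes stood apart from the processes they belong to and were chosen after their values were seen. UBE2C, the conjugating enzyme that starts ubiquitin chains for the anaphase-promoting complex (chr20:45812576-45816957), measured 1.03 to 1.82 FPKM in HAP1 (median 1.35) and 82.7 to 305 FPKM in HCT116 (median 172), with a log2 difference of -6.10. Its partner UBE2S measured 173.2 to 211.6 FPKM in HAP1 and 109 to 241 FPKM in HCT116 (0.31). The mitotic genes CCNB1 and CDC20 also overlapped between the lines (0.32 and -0.18), and TOP2A was higher in HAP1 (1.52).

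NNT, the mitochondrial nicotinamide nucleotide transhydrogenase, measured 39.1 to 77.3 FPKM in HAP1 and 0.0313 to 0.382 FPKM in HCT116, a log2 difference of 5.47. GPC4, a glypican encoded beside GPC3 on the X chromosome, measured 53.6 to 98.9 FPKM in HAP1 and 1.47 to 8.78 FPKM in HCT116 (3.79). In the 3 libraries low in MAL2, GPC4 was 1.47 to 1.68 FPKM, against 6.84 to 8.78 FPKM in the other 6 HCT116 libraries.

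Genes present in one line and near absent in the other were counted without a test, as those with at least 5 FPKM in every library of one line and under 0.1 FPKM in every library of the other. There were 25 present in HAP1 (0.184% of 13553) and 22 present in HCT116 (0.162%), and 23 and 21 of them were protein coding. Of the 25 present in HAP1, 6 lay on the X chromosome, and none of the 22 present in HCT116 did, where 453 of the 13553 genes tested did.

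The HAP1 set, by mean, was led by the pseudogene TPTEP1 (mean 17.6 FPKM), TCEAL3 (16.5), NUDT10 (15.8), VCAM1 (14.5) and PTPRD (14.3). VCAM1 is an adhesion molecule of activated endothelium and marrow stroma, and PTPRD a receptor phosphatase of synapses. EMILIN3 (13.7), SMIM10 (12.7) and BEX5 (11.05) followed. Named after their values were seen, the transcription factors DACH1, POU3F3, POU4F1, NKX2-2 and HOXD13 were further down, at means of 6.33 to 11 FPKM.

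The HCT116 set was led by SOX9 (mean 32 FPKM), RHBDD1 (21.1), BDNF (20), MTX3 (19.5) and ADGRF1 (19.3). CBLC, a ubiquitin ligase of epithelial cells, averaged 18.3 FPKM in HCT116 and reached 0.0655 FPKM at most in HAP1, and CD163L1 (17.8) was listed at 0 in all HAP1 libraries. The peptidase KLK7 averaged 11.1 FPKM and the tensin TNS4 16.8 FPKM, with at most 0.0945 and 0.0632 FPKM in HAP1.

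Differences were also read along the genome, since HAP1 is near-haploid and HCT116 near-diploid. On the X chromosome the median log2 difference was 1.10 over 453 genes tested, against 0.11 over all genes, and 251 of them (55.4%) were called higher in HAP1 and 25 higher in HCT116. The value was 0.99 to 1.21 across the alternative settings. All 13 of the 10 Mb bins of the X chromosome that held at least 10 genes had a median over 0.80. The median FPKM of X-linked genes relative to that of autosomal genes was 1.38 to 1.53 in HAP1 libraries (median 1.47) and 0.569 to 0.656 in HCT116 libraries (median 0.601), with no overlap.

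Among the autosomes, chromosome 15 had the highest median, 0.62 over 464 genes, with 141 (30.4%) called higher in HAP1. This was uneven along the chromosome. In 4 of its 9 bins, which were 20 to 30 Mb and 60 to 90 Mb from the start of the chromosome, the median was over 0.80. The medians of its other bins were 0.126 to 0.280. The 240 genes of the 4 bins had a median of 0.99 and the other 224 genes one of 0.19, which follows in part from choosing bins by their median. Of 277 autosomal bins 6 were over 0.80, and the 2 outside chromosome 15 held under 20 genes each. PSMA4, given above, lies in the 70 to 80 Mb bin, whose median was 1.04.

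Chromosomes 8, 17 and 10 had the lowest medians, at -0.20, -0.09 and -0.05, of which that of chromosome 10 changed sign to 0.02 after TPM scaling. Bins with the lowest medians among those of at least 20 genes were at 100 to 110 Mb of chromosome 8 (-0.60) and at 100 to 110 and 110 to 120 Mb of chromosome 10 (-0.55 and -0.52). Copy number was not measured in these libraries.

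**Figure D5:**
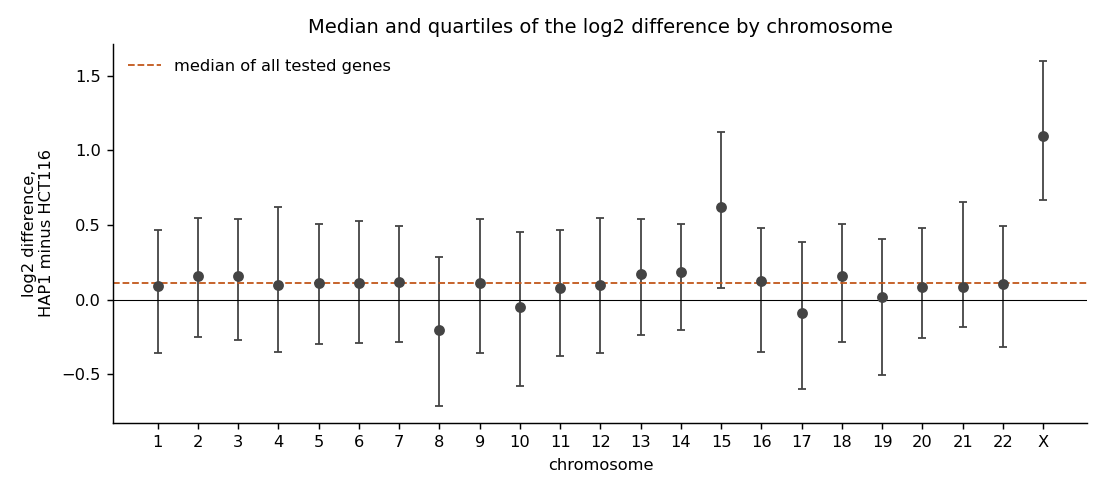
Median log2 difference, HAP1 minus HCT116, of the genes tested on each chromosome, with the lower and upper quartiles as bars and the median of all genes, 0.11, as a dashed line. The X chromosome (1.10) and chromosome 15 (0.62) lie above the rest, and chromosome 8 (-0.20) lies lowest.

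Differences inside each line were far fewer than between the lines. In HAP1, 11 genes were called between EV and WT libraries (0.0812% of 13553), 7 higher and 4 lower in EV. TAL1, a transcription factor of blood progenitors (chr1:47216290-47232225), measured 14.1 to 21.1 FPKM in the 4 WT libraries and 1.12 to 1.63 FPKM in the 4 EV libraries, a log2 difference of -3.07, EV minus WT. PDGFRA measured 3.85 to 8.04 FPKM in WT and 0.505 to 0.717 FPKM in EV (-2.12). In HCT116, TAL1 was at or under 0.144 FPKM and PDGFRA at or under 0.0858 FPKM, and among libraries titled WT the lines differed by 4.17 and 2.74. Among empty-vector libraries alone neither gene passed the filter on low values, so the calls of TAL1 and PDGFRA between the lines rested on the HAP1 WT libraries.

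The other HAP1 calls were TCEAL9 (-2.48) and GLMP (-1.56), lower in EV, and STXBP2 (2.37), BMP7 (2.25), GLYATL2 (1.44), ZNF22 (1.32), HOOK1 (1.11), FRMD4A (1.08) and KIAA1324L (1.05), higher in EV. If the EV line grew from 1 cell, an effect of Cas9 without a guide and a difference between clones could not be told apart.

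In HCT116, no gene was called between EV2 libraries and the WT and EV1 libraries as titled, while limma gave 435 genes at an unadjusted p under 0.05. With replicate 4 left out, 154 genes were called, 39 higher and 115 lower in EV2, and 1515 had an unadjusted p under 0.05. The count of differences inside HCT116 therefore depended on the replicate whose titles and genotype labels conflict.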

How the data were processed

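Per the labels, RNA was isolated with a column kit and libraries were made with an Illumina TruSeq kit. The submitters' processing notes name FastQC, STAR, RSEM and GRCh38, and the authors deposited FPKM per gene from RSEM, without the reads per gene, so the exact depth was unknown and no count test was run. Whether the counting used strand was not given. RSEM divides reads that match several genes, which makes near-identical genes uncertain.

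Here log2(FPKM + 1) was taken for genes with a mean of at least 1 FPKM over the 17 libraries, and HAP1 was compared with HCT116 with limma 3.58.1 in R 4.3.3 (lmFit, eBayes with a trend, Benjamini-Hochberg over 13553 genes), without covariates. Calls required an adjusted p under 0.05 and at least 2-fold. Positions were taken from GENCODE 44 for 56417 genes (98.1%), and 294 symbols were held by several genes. No libraries held identical values. Tables and plots were made with Python 3.11.15, pandas 2.3.3, numpy 2.4.6 and matplotlib 3.10.9.

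Groups followed the titles. HCT116 EV1 and EV2 replicate 3 were left out by the rule and added back as an alternative. Named genes were the 15 protein-coding genes with the largest difference in each direction, without overlap of the lines and with a symbol held by 1 gene, members of the fixed lists, genes present in one line and near absent in the other, and NUP58. The members and lists were chosen with earlier results of these data known, so list counts are descriptions and carry no p. Genes high in a single line could pass the filter, so list counts and medians cover only the members that passed. Some genes of the lists are counted in the totals but not reported here by name. Within each line, HAP1 EV was compared with WT, and HCT116 EV2 with WT and EV1, in 1 limma fit over 4 groups.

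Alternatives were a pseudocount of 0.1, no filter, TPM and median-ratio scaling, limma without a trend, unequal variances, a replicate block, subsets of libraries and each library left out. Leaving out the 3 HCT116 libraries low in MAL2, and HCT116 replicate 4 within its line, was chosen after seeing the data. Tested on simulated data for this comparison over 13553 genes, limma recovered 200 of 200 genes changed 4-fold, with 2 false calls. The changed genes were drawn only from genes above a set mean level. Noise was independent between libraries and of the same size in both lines. Changes in genes of low level, and libraries that share a culture, were therefore not covered.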

Additional observations from a re-analysis of the deposited data

Results flagged for a closer look

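Values far from the others of their line were looked for in 406 groups of 8 or 9 libraries, with Dixon's criterion of the gap to the nearest value over the range. It marked 31 groups, and chance marks about 1 in 20. Of these, 14 were in 1 library, HAP1 WT replicate 2.

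In that library POU5F1 (1041 FPKM), SOX2 (753.8), MYC (547.1), OTX2 (156.6), FGFR1 (96.4), HLA-E (29.7) and B2M (634.2) were the highest of HAP1. So were several genes that were low in this line, namely H1F0 (1.05 FPKM), LAMB3 (0.207), CRB3 (1.94), SNAI1 (7.97), HOXB7 (0.778) and HOXB9 (7.14). CTNNB1 (94.6) was the lowest of HAP1 there. Without this library the log2 differences of POU5F1 and SOX2 were 7.31 and 7.08, and both stayed called.

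In the other HAP1 libraries, ESRP2 (0.619 FPKM) and MLH3 (1.01) were highest in WT replicate 3 and AXIN2 (6.26) in WT replicate 4. EGFR (0.606) was highest in EV replicate 1, RANBP17 (0.113) and CBLC (0.0655) in EV replicate 2, and GRHL2 (0.0207) and UBE2S (211.6) in EV replicate 3. CORO1A (4.78) was lowest in EV replicate 3, and AP1M2 (0) in EV replicate 4.

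Among HCT116 libraries, LOX (0.0469 FPKM) and MST1R (38.6) were highest in EV1 replicate 1 and UTF1 (0.163) in EV1 replicate 2. CDH2 (0.285) was highest and MLH3 (2.64) lowest in EV2 replicate 1. HOXC13 (1.35) was lowest in EV2 replicate 2, and HOXC8 (0.83) highest in EV2 replicate 4. Many of these values were under 1 FPKM, where few reads decide a value.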

How the results depend on the processing

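Each line was 1 cell line, exact depth was unknown without reads per gene, and values under about 1 FPKM rest on few reads. No called gene examined singly and no list median past 0.1 in size changed sign. The neural median of -0.007 did, up to 0.154 with the replicate block. The proteasome median of 0.00 was -0.117 after median ratios and 0.085 among empty-vector libraries. The chromosome 10 median of -0.051 was 0.02 after TPM scaling. After median ratios more genes were called in HCT116 (1667) than in HAP1 (1548). The counts of genes called between the lines stayed within 1.5 times of 1741 and 1503 under every alternative, from 1548 (median ratios) to 2148 (pseudocount 0.1) in HAP1 and from 1418 (libraries titled WT) to 1756 (pseudocount 0.1) in HCT116, and were 1719 to 1795 and 1450 to 1558 with each library left out. Of 6157 values of 199 genes examined singly over the alternatives, 6099 kept their side of the threshold, 29 lost a call and 29 gained one.

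Genes present in one line and near absent in the other numbered 180 and 139 at 1 FPKM against 0.1, and 0 and 0 at 10 FPKM against listed at 0. The HCT116 contrast of EV2 rose from 0 to 154 calls without replicate 4. With a pseudocount of 0.1 the list medians were -4.78 (epithelial), 1.04 (mesenchymal), -1.78 (haematopoietic), 3.76 (early embryonic) and -5.18 (cancer-testis). After TPM scaling the early embryonic median was 2.04 and the cancer-testis median -4.20. Among empty-vector libraries the mesenchymal, haematopoietic and early embryonic medians were 0.033, -1.27 and 1.98, and among libraries titled WT the haematopoietic median was -0.24. With HCT116 replicate 3 added, the mesenchymal and early embryonic medians were 0.19 and 2.03, and without HAP1 replicate 3 the latter was also 2.03. Without the 3 libraries low in MAL2 the antigen presentation median was -0.29. With each library left out, medians ranged from 0.12 to 0.66 (mesenchymal), 1.60 to 2.11 (early embryonic) and -0.29 to -0.055 (antigen presentation). At a minimum mean of 5 FPKM the medians of chromosomes 9 and 13 were 0.157 and 0.084. The cause of these shifts was not tested, except that the genes passing the filter also changed with the libraries used.

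With the replicate number as a block, 1841 genes were higher in HAP1 and 1479 higher in HCT116, and 15 and 0 were called within the lines. Deviations of libraries sharing a number correlated at 0.119, -0.178 and 0.169 between the lines, and those of different numbers at -0.346 to 0.375. With so wide a range, this check could not tell whether the numbers paired the libraries.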
